A study of Mus musculus with 16 samples.

Results

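Mouse orthologues of 36 genes at loci linked to late-onset Alzheimer's disease in people were followed in RNA-seq of sorted brain microglia. The genes were taken by symbol from a list that was drawn up with earlier results of these data known. Of the 36, 35 were listed in the gene table of 20267 genes, and Slc24a4 was not analysed here. A level of at least 1 CPM (counts per 1000000 assigned reads) in at least 4 of the 16 libraries was reached by 31 genes, against 13912 genes of the whole table, and these 31 were tested.

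The study sequenced RNA of sorted microglia from 16 mice aged 11 months, 4 mice in each of 4 groups, to ask what the kinase p38α does in microglia of an amyloid model. AD p38KO mice carried APPswe/PS1dE9, an amyloid transgene, with both copies of the p38α gene Mapk14 floxed (p38fl/fl) and 1 copy of Cx3cr1-creERT2. AD p38+/+ mice carried the transgene and the floxed alleles without Cre. WT p38KO mice carried the floxed alleles and Cre without the transgene, and WT p38+/+ mice the floxed alleles alone.

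All groups, controls included, were on C57BL/6J and ate chow with 400 ppm tamoxifen for 4 weeks from 5 months of age. The Cx3cr1 promoter drives Cre in other myeloid cells as well as in microglia, and the Cre allele takes the place of 1 Cx3cr1 copy, so that loss of p38α and loss of that copy cannot be told apart. About 10000 live cells positive for CD11b and P2ry12 were sorted from 1 hemisphere per mouse. The libraries came from separate mice, 11 male and 5 female, and the sequenced mice were chosen for high RNA quality. Mouse 1 of each group and WT p38KO mouse 2 were the females, so values without AD p38KO mouse 1 leave only males in that group.

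In each library, 1 CPM stood for 12.2 to 16.4 assigned reads, as estimated from the steps between low values. Mapk14-202, 1 of the listed transcripts of the p38α gene, lay between 0.0574 and 0.248 CPM in AD p38KO and between 58.5 and 71.0 CPM in AD p38+/+ libraries. It lay between 0.0589 and 0.214 CPM in WT p38KO and between 47.1 and 82.6 CPM in WT p38+/+ libraries, which separated all p38KO from all p38+/+ libraries. Mapk14-203 went the other way, with 134.9 to 154 CPM in AD p38KO against 61.3 to 82.7 CPM in AD p38+/+ and 129.6 to 160.2 CPM in WT p38KO against 74.5 to 98.7 CPM in WT p38+/+ libraries. The whole gene, which counts all exons, did not pass the limma test in AD mice (adjusted p = 0.909) or in WT mice (adjusted p = 1). The transgene was not checked. The 10 microglia markers summed to 58400.1 to 70897 CPM, the 10 neuron markers to 1.15 to 8.12 CPM and the 10 astrocyte markers to 167 to 287 CPM. Cx3cr1, the locus of the Cre allele, is 1 of the 10 microglia markers. In a principal component analysis, mouse 4 of the AD p38KO group lay far from the rest on the leading axis and mouse 1 of that group on the next, and the AD p38KO libraries had the fewest genes above 0 (15487 to 16855, against 16992 to 18058 in the other groups). Results that rest on those 2 mice are given with and without 1 or both of them. In bulk RNA, fewer cells of a type and less RNA per cell cannot be told apart.

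Genome-wide association links these loci to the risk of late-onset Alzheimer's disease, and many of the genes near the signals are active in myeloid cells. Their products take part in endocytosis and sorting of membrane cargo, in adhesion and actin dynamics, in signalling from immune receptors, and in lipid handling. A locus does not always have 1 certain gene, so several members are the best-known candidates at their signals.

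Promoter sequences are shown for 4 members, picked by level, p-value, number of listed transcripts or a motif match. RefSeq start sites (build GRCm38.p6) were found for 28 members, with 39 promoters of 250 bases before to 50 bases after the start, and 28 of the 39 starts lay within 50 bases of the start of a listed transcript. Tspan14 has the highest level of all members, and the start site in its first sequence (chr14:40966847-40967146, minus strand) is 89 bases from the listed start of Tspan14-201. The start site in its second (chr14:40948160-40948459, minus strand) is 13888 bases from the nearest listed start, that of Tspan14-202. Spred2 (chr11:19924192-19924491, plus strand) is shown as the other member with a motif match. Ms4a6b (chr19:11518309-11518608, plus strand) has the smallest p-value among the members, and Picalm (chr7:90129963-90130262, plus strand) the most listed transcripts. Capitals mark GAGGAAGT on either strand, the core of a site for PU.1, the ETS factor of the myeloid lineage.
Tspan14, first start: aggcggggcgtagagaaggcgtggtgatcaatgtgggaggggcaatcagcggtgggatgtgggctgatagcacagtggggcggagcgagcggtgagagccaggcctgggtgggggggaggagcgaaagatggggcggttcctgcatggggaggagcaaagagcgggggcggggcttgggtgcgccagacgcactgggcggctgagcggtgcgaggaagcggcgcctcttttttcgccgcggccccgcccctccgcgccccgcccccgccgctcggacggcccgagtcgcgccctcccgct
Tspan14, second start: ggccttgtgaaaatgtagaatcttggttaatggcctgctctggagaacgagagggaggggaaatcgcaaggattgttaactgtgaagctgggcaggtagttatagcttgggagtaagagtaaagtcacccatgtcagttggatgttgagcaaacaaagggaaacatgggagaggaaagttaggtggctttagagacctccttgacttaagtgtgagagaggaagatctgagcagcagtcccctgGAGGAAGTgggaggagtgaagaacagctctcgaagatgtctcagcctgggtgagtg
Spred2: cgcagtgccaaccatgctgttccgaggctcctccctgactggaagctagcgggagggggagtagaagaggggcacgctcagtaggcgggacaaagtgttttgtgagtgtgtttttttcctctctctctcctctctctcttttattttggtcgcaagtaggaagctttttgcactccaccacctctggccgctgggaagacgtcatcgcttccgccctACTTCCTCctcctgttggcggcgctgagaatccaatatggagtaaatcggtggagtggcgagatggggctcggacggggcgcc
Ms4a6b: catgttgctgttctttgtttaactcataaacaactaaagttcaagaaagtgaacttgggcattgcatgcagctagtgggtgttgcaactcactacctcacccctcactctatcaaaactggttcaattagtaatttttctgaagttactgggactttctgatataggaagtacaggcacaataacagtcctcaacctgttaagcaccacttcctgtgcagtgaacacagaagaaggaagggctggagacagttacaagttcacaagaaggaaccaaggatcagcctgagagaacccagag
Picalm: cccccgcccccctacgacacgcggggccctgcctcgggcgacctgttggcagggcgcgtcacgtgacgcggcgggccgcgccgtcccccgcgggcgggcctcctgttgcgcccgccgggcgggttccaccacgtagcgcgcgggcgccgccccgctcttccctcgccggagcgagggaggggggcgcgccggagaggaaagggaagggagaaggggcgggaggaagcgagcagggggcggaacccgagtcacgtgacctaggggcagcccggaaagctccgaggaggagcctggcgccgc
The 8 letters were found in promoters of 2 of the 28 members (7.14%), against 3.69% of 27025 genes with a RefSeq promoter and 3.98% of the 9493 of these that were tested. In Tspan14 the match began at base -6 of the second start on the gene's own strand, and in Spred2 at base -33 on the other strand. A match is a description of these letters and no evidence of binding.

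The members span a wide range of levels. To compare genes, each transcript's CPM was divided by its length and summed over the gene, which gives a length-scaled level in CPM per kb. In WT p38+/+ mice, 9 of the 31 members were among the top 10% of tested genes by this level, 16 among the top 25% and 23 above the median gene. The median member stood at percentile 76.3 of all tested genes.

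Tspan14, a tetraspanin that partners with the metalloprotease ADAM10, led with 323 ± 21.9 CPM per kb in WT p38+/+ mice (SD, n = 4), followed by Bin1, a BAR-domain protein that bends membranes, with 262 ± 41.2. Abi3, a component of actin-regulating WAVE complexes, had 155 ± 26.7 CPM per kb, and Blnk, an adaptor phosphorylated by the kinase SYK, 113 ± 9.48. At the low end, Spred2, an inhibitor of Ras signalling, had 2.41 ± 0.989 CPM per kb and Ace, the angiotensin-converting enzyme, 0.187 ± 0.129. By level, Ace stood at percentile 2.07 of all tested genes and Spred2 at percentile 26.7.

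**Figure D1:**
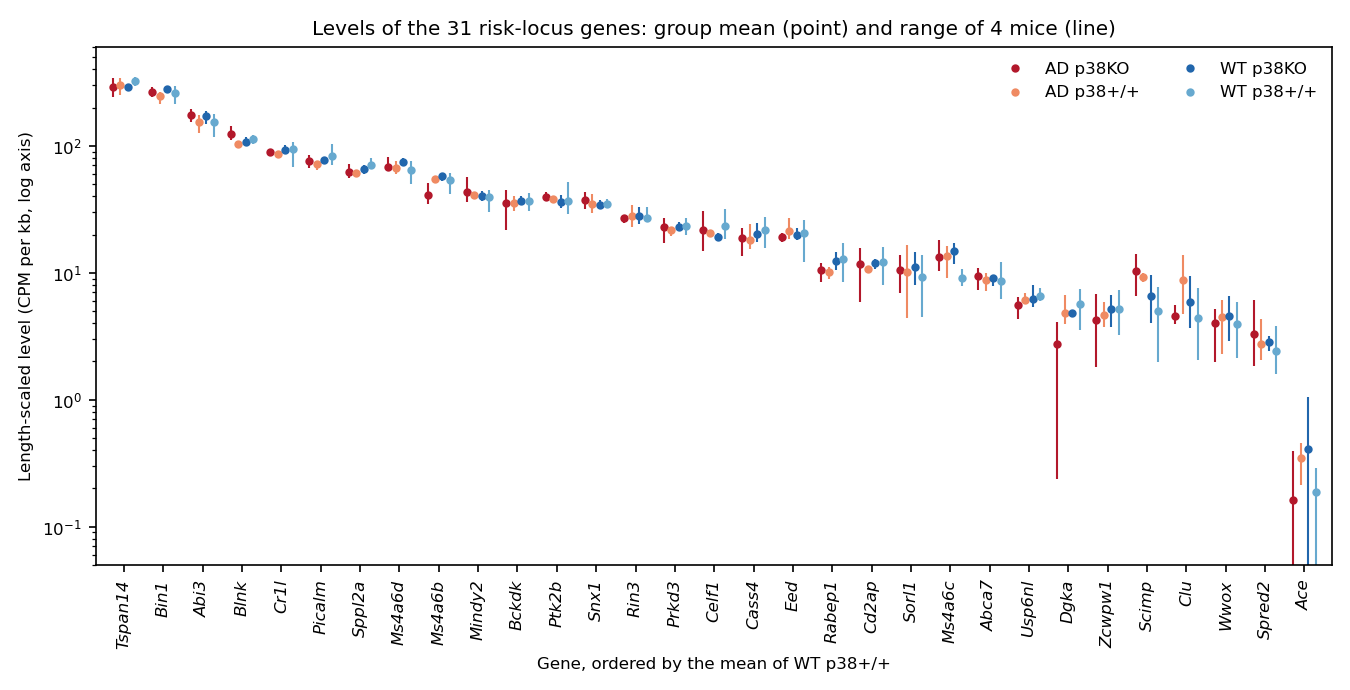
Length-scaled level (CPM per kb, log axis) of the 31 tested members, ordered by the mean of WT p38+/+. Points are means of 4 mice and lines run between the lowest and the highest mouse of AD p38KO, AD p38+/+, WT p38KO and WT p38+/+; lines that reach the bottom of the axis include libraries under 0.05. The means of Tspan14 lie between 290.0 and 323 CPM per kb in the 4 groups and those of Ace between 0.163 and 0.406.

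Of the 8 members with the highest length-scaled level in WT p38+/+, gene CPM is given for every mouse. Tspan14 had 744, 688, 843 and 596 CPM in AD p38KO and 623, 753, 745 and 839 CPM in AD p38+/+ mice. It had 741, 683, 714 and 731 CPM in WT p38KO and 824, 727, 792 and 855 CPM in WT p38+/+ mice. The 4 WT p38KO mice lay close together, and the groups overlapped.

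Bin1 had 529.5, 477, 472 and 448 CPM in AD p38KO and 392, 478, 457 and 459 CPM in AD p38+/+ mice. In WT p38KO mice Bin1 had 518, 527, 536 and 473 CPM, and in WT p38+/+ mice 539, 542, 440.1 and 393 CPM. WT p38+/+ mice thus held both the highest and nearly the lowest value of Bin1. Abi3 had 416, 402, 352 and 398 CPM in AD p38KO and 292, 403, 337 and 393 CPM in AD p38+/+ mice, against 388, 321, 422 and 385 CPM in WT p38KO and 378, 408, 364 and 271 CPM in WT p38+/+ mice. For Abi3 the groups overlapped as well.

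Cr1l, the rodent complement regulator Crry, had 139, 136, 145 and 128 CPM in AD p38KO and 142, 124, 128 and 132 CPM in AD p38+/+ mice. In WT p38KO mice Cr1l had 146, 140.3, 133 and 149 CPM, and in WT p38+/+ mice 162, 104.3, 158 and 142 CPM, the widest of the 4 groups. Of its 100-base windows, 12.95% also occur in the pseudogene Crry-ps, so part of its reads could be assigned to either. Picalm, a clathrin assembly protein, had 236, 218, 303 and 277 CPM in AD p38KO and 220.1, 203, 249.6 and 239 CPM in AD p38+/+ mice, against 246, 267, 274 and 254 CPM in WT p38KO and 319.5, 221, 269 and 254 CPM in WT p38+/+ mice. The highest Picalm value was that of WT p38+/+ mouse 1, and the groups overlapped.

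Sppl2a, an intramembrane protease of the endosome and lysosome, had 291, 291, 373 and 348 CPM in AD p38KO and 323, 305, 316 and 309.7 CPM in AD p38+/+ mice. It had 307, 365, 317 and 334 CPM in WT p38KO and 355, 339.7, 399.6 and 341 CPM in WT p38+/+ mice. All 4 AD p38+/+ mice lay below the 4 WT p38+/+ mice. Ms4a6d, a 4-span membrane protein of the MS4A cluster on chromosome 19, had 91.6, 115.1, 90.7 and 89.7 CPM in AD p38KO and 84.8, 98.3, 90.1 and 108.2 CPM in AD p38+/+ mice, against 103.6, 111.96, 113.3 and 97.5 CPM in WT p38KO and 100.3, 71.0, 86.3 and 108.03 CPM in WT p38+/+ mice. Here 1 AD p38KO mouse stood above the other 3, and the groups overlapped.

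Most members varied little between mice of a group. The residual SD, on the log2(CPM + 0.5) scale on which genes were tested, was below that of the median gene for 22 of the 31 members, and 7 were among the lowest 10% of tested genes. These ranks were not matched for level, and 23 of the 31 members stood above the median gene by length-scaled level. Sppl2a had the smallest residual SD (0.12), followed by Bin1 and Tspan14 (both 0.15). Sorl1, a sorting receptor for the amyloid precursor protein, varied more, with a residual SD of 0.60 and CPM of 45.3 to 173 over the 16 libraries, and the low Dgka (0.85) and Ace (1.06) varied most.

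No member passed an adjusted p of 0.05 in limma's test in any of 7 comparisons, with Benjamini-Hochberg adjustment over all 13912 genes. For AD p38+/+ against WT p38+/+ mice, 0 of 31 members passed, against 0.359% of all tested genes, and 2 had an unadjusted p under 0.05 (6.45%), against 7.11% of all genes. For AD p38KO against WT p38KO mice, 0 members passed, against 0.323% of all genes, and 2 had an unadjusted p under 0.05, against 9.56%. For AD against WT over both p38 genotypes, 0 members passed, against 1.03% of all genes, and 2 had an unadjusted p under 0.05, against 12%.

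The p38 comparisons called few genes of any kind. For AD p38KO against AD p38+/+ mice, 0 of 31 members passed the limma test, against 0.0503% of all genes, and 3 had an unadjusted p under 0.05 (9.68%), against 6.99%. In WT p38KO against WT p38+/+ mice, 0 members passed, against 0.00719% of all genes, and 1 had an unadjusted p under 0.05 (3.23%), against 3.53%. The only gene called there was Cx3cr1, the locus of the Cre allele, with a log2 fold change of -1.17 (limma adjusted p = 4.43e-06). Cx3cr1 was also called in AD mice, at -1.08 (adjusted p = 1.56e-05). For p38KO against p38+/+ over both backgrounds, 0 members passed, against 0.0791% of all genes, and 0 had an unadjusted p under 0.05, against 5.90%. For the interaction, which asks whether AD differs from WT by another amount in p38KO than in p38+/+ mice, 0 members passed, against 0% of all genes, and 3 had an unadjusted p under 0.05, against 3.92%. The members' shares were near the background or below it in all but the p38 comparison in AD mice and the interaction, where each rests on 3 genes.

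These comparisons limit how large a change could be. For AD against WT over both p38 genotypes, the 95% interval of the log2 fold change lay within 0.5 of 0 for 20 of 31 members (64.5%, against 43.4% of all tested genes), and within 1 for 28. Between p38KO and p38+/+ mice over both backgrounds it lay within 0.5 for 21 members (67.7%, against 47.7% of all genes), and within 1 for 29. For the interaction it lay within 0.5 for 7 members and within 1 for 21. The shares of all genes were not matched for level. Members whose interval reaches further can have changed by more than these data show. The median log2 fold change of the members was -0.04 for AD against WT over both p38 genotypes, and that of all genes -0.03. Between p38KO and p38+/+ mice it was 0.02, against -0.01 for all genes.

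**Figure D2:**
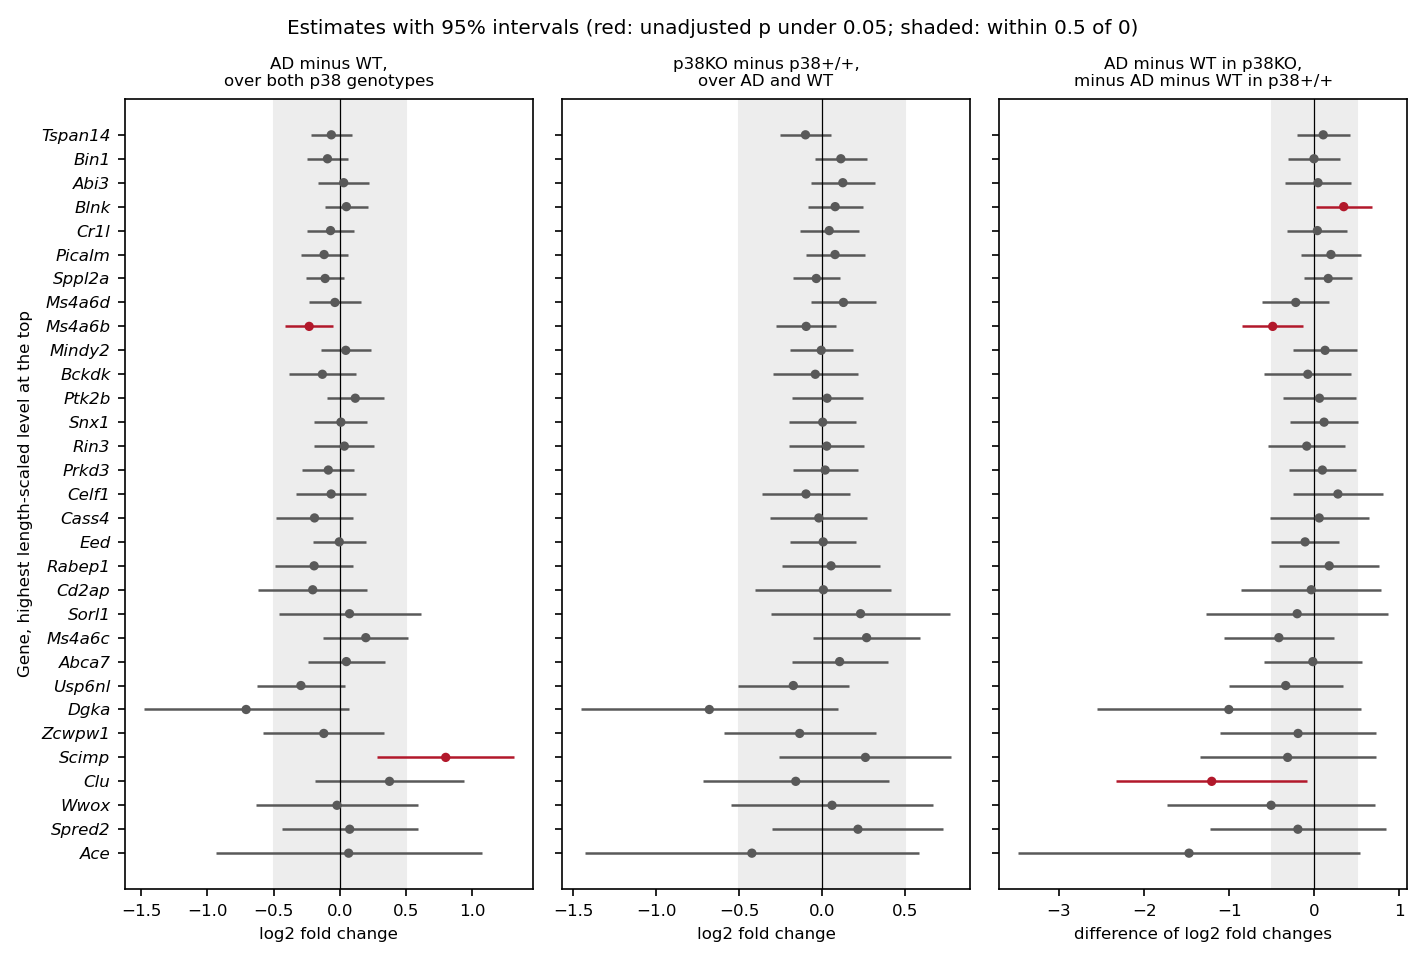
Estimate (point) and 95% interval (line) of each of the 31 members for AD minus WT over both p38 genotypes, p38KO minus p38+/+ over AD and WT, and their interaction, on the log2(CPM + 0.5) scale. Red marks an unadjusted p under 0.05 (2, 0 and 3 members) and shading the range within 0.5 of 0; the intervals widen towards the low members at the bottom.

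In endocytosis and sorting, all 8 members were tested and 0 had an unadjusted p under 0.05 in any of the 7 comparisons. For AD against WT over both p38 genotypes their log2 fold changes ran between -0.29 and 0.07 (3 positive, 5 negative). Cd2ap, an adaptor between membrane cargo and actin, Rin3, an exchange factor for a Rab GTPase, Rabep1, a Rab effector, and Snx1, a sorting nexin, belong here with Bin1, Picalm, Sorl1 and Usp6nl. Between p38KO and p38+/+ mice over both backgrounds they ran between -0.17 and 0.23. Bin1 was among the 3 members with the smallest p there, with a log2 fold change of 0.11 (95% interval -0.04 to 0.27, adjusted p = 0.860), but 0.07 without WT p38+/+ mouse 4.

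Usp6nl, a GTPase-activating protein for a Rab of early endosomes, had 38.1, 24.0, 40.9 and 16.7 CPM in AD p38KO and 38.3, 34.5, 35.0 and 35.7 CPM in AD p38+/+ mice. In WT p38KO mice it had 38.1, 50.8, 32.9 and 36.1 CPM, and in WT p38+/+ mice 36.5, 47.2, 37.6 and 36.2 CPM. The low values were those of AD p38KO mice 2 and 4, and the groups overlapped. Against WT p38KO its log2 fold change in AD p38KO mice was -0.46 ± 0.22 (SE, limma adjusted p = 0.532), and -0.21 without AD p38KO mouse 4 (adjusted p = 0.761), -0.60 without mouse 1 (adjusted p = 0.442) and -0.31 without both (adjusted p = 0.853).

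In adhesion and cytoskeleton, 3 of 5 members were tested: Abi3, Ptk2b, a kinase related to focal adhesion kinase, and Cass4, a scaffold of the Cas family. None had an unadjusted p under 0.05. For AD against WT over both p38 genotypes their log2 fold changes ran between -0.19 and 0.12, and for p38KO against p38+/+ between -0.02 and 0.12. Ptk2b averaged 152 ± 10.8 CPM in AD p38KO, 146 ± 8.12 in AD p38+/+, 138 ± 15.9 in WT p38KO and 141 ± 39.6 in WT p38+/+ mice (SD, n = 4 each).

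The immune membrane proteins and adaptors held most of the members with a small p. Ms4a6b, of the same chromosome 19 cluster as Ms4a6d and Ms4a6c, had 72.5, 97.01, 79.2 and 75.4 CPM in AD p38KO and 99.7, 97.6, 105.6 and 105.6 CPM in AD p38+/+ mice. It had 115.3, 104.4, 114.4 and 114.5 CPM in WT p38KO and 117, 79.7, 105.7 and 106.2 CPM in WT p38+/+ mice. All 4 AD p38KO values lay below those of the 4 WT p38KO mice and, by a small margin for mouse 2, of the 4 AD p38+/+ mice, while they overlapped with those of WT p38+/+ mice. No other gene shares a 100-base window with its most abundant transcript, but exons of Gm19261 overlap it on the opposite strand.

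Against WT p38KO mice, the log2 fold change of Ms4a6b in AD p38KO mice was -0.47 ± 0.12 (SE, 95% interval -0.73 to -0.22), with an unadjusted p of 0.00102 and a limma adjusted p of 0.126. Against AD p38+/+ mice it was -0.34 ± 0.12 (adjusted p = 0.618), over both p38 genotypes it was -0.23 ± 0.09 for AD against WT (adjusted p = 0.273), and the interaction was -0.49 ± 0.17 (adjusted p = 1.00). Without AD p38KO mice 1 and 4, whose values were the lowest, the first of these was -0.35 (adjusted p = 0.606) and the second -0.22 (adjusted p = 0.948). The value over both p38 genotypes was then -0.17 (adjusted p = 0.529) and the interaction -0.37. The border macrophage markers summed to 35.9 to 85.1 CPM in AD p38KO and 66.2 to 145 CPM in WT p38KO mice, with 1 of 10 at an unadjusted p under 0.05, and their part in the values of Ms4a6b was not tested. The 4 comparisons share libraries and are not independent of each other. Without WT p38+/+ mouse 2 the adjusted p of the first was 0.0487, the only setting under which a member passed at the gene level. That mouse is in neither group compared and enters only through the estimate of spread that the groups share.

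Ms4a6c, a neighbour known also from monocytes, had 16.2, 20.3, 17.4 and 28.9 CPM in AD p38KO and 22.8, 20.1, 22.10 and 13.8 CPM in AD p38+/+ mice. In WT p38KO mice it had 19.6, 23.5, 24.0 and 15.4 CPM, and in WT p38+/+ mice 13.5, 12.95, 16.4 and 15.3 CPM. The 4 WT p38+/+ mice were uniformly low, and WT p38KO mouse 4 lay within their range. The log2 fold change of WT p38KO against WT p38+/+ mice was 0.47 ± 0.22 (SE, 95% interval 0.02 to 0.93, limma adjusted p = 1), and over both backgrounds it was 0.27 ± 0.15 (adjusted p = 0.841). The value over both backgrounds was 0.18 without AD p38KO mouse 4, 0.32 without AD p38KO mouse 1 and 0.22 without both. Of the 10 monocyte and granulocyte markers 5 were listed, and they summed to 3.82 to 15.4 CPM in WT p38KO and 5.98 to 17.0 CPM in WT p38+/+ mice, with Vcan and Ly6c2 at 0 in at least 1 library. The 10 border macrophage markers summed to 66.2 to 145 CPM in WT p38KO and 28.5 to 90.5 CPM in WT p38+/+ mice, with 1 at an unadjusted p under 0.05 and 0 called by limma. The part of either list in the values of Ms4a6c was not tested. For Ms4a6d the same comparison gave 0.24 ± 0.13 (95% interval -0.04 to 0.52, adjusted p = 1), but 0.12 without WT p38+/+ mouse 2, and for Tspan14 it gave -0.15 ± 0.10 (95% interval -0.37 to 0.07, adjusted p = 1).

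Scimp, a transmembrane adaptor of immune cells that signals from Toll-like receptors and MHC class II, had the smallest p of the members for AD against WT over both p38 genotypes and in p38+/+ mice. It had 13.4, 15.04, 7.07 and 9.34 CPM in AD p38KO and 9.97, 10.1, 9.15 and 10.7 CPM in AD p38+/+ mice, against 7.97, 10.4, 5.47 and 4.37 CPM in WT p38KO and 5.36, 5.78, 8.27 and 2.12 CPM in WT p38+/+ mice. All 4 AD p38+/+ mice lay above the 4 WT p38+/+ mice, while the p38KO groups overlapped.

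Over both p38 genotypes the log2 fold change of Scimp for AD against WT was 0.80 ± 0.25 (SE), or 1.74-fold with a 95% interval of 1.22 to 2.49. Its unadjusted p was 0.00448 and its limma adjusted p 0.170, so it did not pass. In p38+/+ mice alone it was 0.96 ± 0.35 (adjusted p = 0.492), but 0.61 without WT p38+/+ mouse 4 (adjusted p = 0.642), and in p38KO mice 0.65 ± 0.35 (adjusted p = 0.579). Without AD p38KO mice 1 and 4 the value over both was 0.77 (adjusted p = 0.275).

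Blnk had 241, 264, 291 and 361 CPM in AD p38KO and 247, 217, 245 and 253 CPM in AD p38+/+ mice. It had 226, 251, 231 and 274 CPM in WT p38KO and 275, 272, 249.7 and 251 CPM in WT p38+/+ mice. The highest value was that of AD p38KO mouse 4, and the groups overlapped. The log2 fold change of AD p38KO against AD p38+/+ mice was 0.25 ± 0.11 (SE, limma adjusted p = 0.703), and 0.14 without AD p38KO mouse 4 (adjusted p = 0.851). The interaction was 0.35 ± 0.16 (adjusted p = 1.00), and 0.24 without that mouse.

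For Sppl2a the log2 fold change of AD p38+/+ against WT p38+/+ mice was -0.19 ± 0.09 (SE, 95% interval -0.39 to 0.01, limma adjusted p = 0.725). Its intervals were narrow, so that over both p38 genotypes a fold change for AD against WT outside 0.840 to 1.02 lay beyond the 95% interval.

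**Figure D3:**
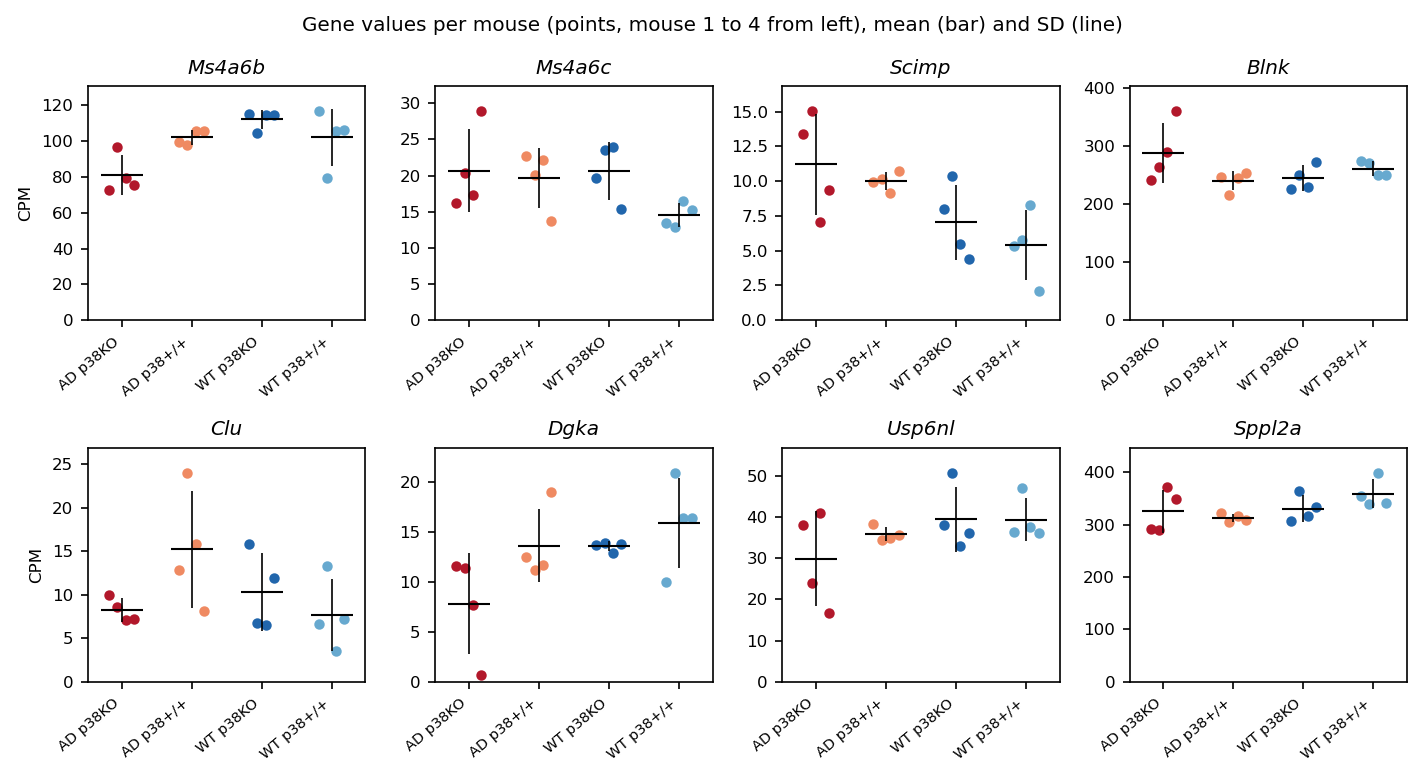
CPM of 8 named members in each mouse (points, mouse 1 to 4 from left), with the group mean (bar) and SD (line, n = 4) for AD p38KO, AD p38+/+, WT p38KO and WT p38+/+, each axis starting at 0. Ms4a6b averages 81.0 CPM in AD p38KO against 112.1 CPM in WT p38KO mice, Scimp 9.99 CPM in AD p38+/+ against 5.38 CPM in WT p38+/+ mice, and AD p38KO mouse 4 is at 0.677 CPM for Dgka.

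Among signalling enzymes and receptors, 3 of 4 members were tested: Dgka, Prkd3 and Spred2. Dgka, a diacylglycerol kinase best known from T cells, had 11.6, 11.4, 7.69 and 0.677 CPM in AD p38KO and 12.5, 11.2, 11.7 and 19.1 CPM in AD p38+/+ mice. It had 13.7, 13.9, 12.9 and 13.8 CPM in WT p38KO and 10.0004, 20.99, 16.5 and 16.4 CPM in WT p38+/+ mice. AD p38KO mouse 4 was far below all other libraries. All 4 AD p38KO mice lay below the 4 WT p38KO mice, and they overlapped with AD p38+/+ mice.

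The log2 fold change of Dgka in AD p38KO against WT p38KO mice was -1.21 ± 0.52 (SE, limma adjusted p = 0.469), but -0.42 without AD p38KO mouse 4 (adjusted p = 0.626). Against AD p38+/+ mice it was -1.18 ± 0.52 (adjusted p = 0.703), and -0.39 without that mouse (adjusted p = 0.828). Over both backgrounds p38KO against p38+/+ gave -0.68 ± 0.37 (adjusted p = 0.841), and -0.28 without it. Over both p38 genotypes AD against WT gave -0.71 ± 0.37 (adjusted p = 0.457), and -0.31 without it. Without AD p38KO mouse 1 the first of these was -1.54 (adjusted p = 0.398) and the second -1.51 (adjusted p = 0.527). Without AD p38KO mice 1 and 4 they were -0.51 (adjusted p = 0.792) and -0.49 (adjusted p = 0.927). A single library, AD p38KO mouse 4, thus sets most of the size of these values.

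Of the 10 lymphocyte markers 4 were listed. They summed to 602 to 718 CPM in AD p38KO, 493 to 692 in AD p38+/+, 472 to 642 in WT p38KO and 534 to 831 in WT p38+/+ mice, most of it Ighm, while the T cell marker Cd3e reached at most 0.977 CPM and was at 0 in some libraries. Cd79a, the remaining listed marker, reached at most 0.576 CPM in any library and was also at 0 in some. Both lymphocyte markers that were tested had an unadjusted p under 0.05 for AD p38KO against WT p38KO mice, and limma called 0. Cd79b lay between 12.7 and 27.9 CPM in AD p38KO and between 29.2 and 38.4 CPM in WT p38KO mice, whereas Ighm lay between 574 and 704 CPM in AD p38KO and between 441 and 604 CPM in WT p38KO mice. The part of such cells in the values of Dgka was not tested. Exons of Pmel overlap those of Dgka on the opposite strand, and whether counting used the strand is not given in the sources used here. Prkd3, a protein kinase D, averaged 109.8 ± 19.9 CPM in AD p38KO, 103.6 ± 6.61 in AD p38+/+, 111.4 ± 7.45 in WT p38KO and 114.4 ± 15.7 in WT p38+/+ mice, and neither it nor Spred2 had an unadjusted p under 0.05.

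Among the lipid and extracellular proteins, Clu encodes clusterin, a secreted chaperone made mainly by astrocytes in brain. Clu had 9.9997, 8.59, 7.14 and 7.17 CPM in AD p38KO and 12.8, 24.1, 15.8 and 8.16 CPM in AD p38+/+ mice, against 15.9, 6.79, 6.55 and 11.97 CPM in WT p38KO and 6.67, 13.3, 3.49 and 7.26 CPM in WT p38+/+ mice. The highest value was that of AD p38+/+ mouse 2, and the groups of both contrasts overlapped.

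The log2 fold change of Clu in AD p38+/+ against WT p38+/+ mice was 0.98 ± 0.38 (SE, limma adjusted p = 0.552) and the interaction was -1.20 ± 0.53 (adjusted p = 1.00). All 10 astrocyte markers were listed and 9 were tested, of which limma called 0 in these comparisons and 1 had an unadjusted p under 0.05 for AD p38+/+ against WT p38+/+ mice. They summed to 167 to 235 CPM in AD p38+/+ and 181 to 259.6 CPM in WT p38+/+ mice, mostly Slc1a3. Gfap alone had 9.57, 3.52, 8.37 and 0.709 CPM in AD p38+/+ and 1.52, 0.609, 1.06 and 0 CPM in WT p38+/+ mice, and Aqp4 was at 0 in 2 AD p38+/+ mice and 1 WT p38+/+ mouse. Their part in the values of Clu was not tested. Abca7, a lipid transporter, averaged 62.7 ± 11 CPM in AD p38KO, 58.3 ± 7.70 in AD p38+/+, 60.3 ± 5.46 in WT p38KO and 57.9 ± 19.0 in WT p38+/+ mice, and its log2 fold change for AD against WT over both p38 genotypes was 0.05 (95% interval -0.24 to 0.34).

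The 3 chromatin and RNA members were Eed, a subunit of Polycomb repressive complex 2, Zcwpw1, a reader of histone methylation, and Celf1, an RNA-binding protein. None had an unadjusted p under 0.05 in any comparison, and for AD against WT over both p38 genotypes their log2 fold changes ran between -0.12 and -0.00. Exons of Pilra, a paired receptor gene of the same risk locus, overlap those of Zcwpw1 on the opposite strand, so their reads may not be told apart. Of the 5 members grouped as other enzymes and transport, Wwox, an oxidoreductase, Mindy2, a deubiquitinase, and Bckdk, a kinase that inhibits branched-chain amino acid breakdown, were tested, and 0 had an unadjusted p under 0.05. Their log2 fold changes for AD against WT over both p38 genotypes ran between -0.13 and 0.05.

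The members nearest the limit of 1 CPM in 4 libraries are given as a description of that limit. Just inside it, and tested with the rest, were Ace, at or above 1 CPM in 8 libraries, and Dgka, in 15. The other 29 reached it in all 16, and the lowest of these in any library was Scimp. Ace had 0, 1.75, 0.854 and 0 CPM in AD p38KO and 1.87, 1.45, 2.25 and 0.993 CPM in AD p38+/+ mice, against 4.23, 0.217, 0 and 2.36 CPM in WT p38KO and 0.797, 1.34, 1.21 and 0 CPM in WT p38+/+ mice. Ace was thus at 0 in some libraries of every group but AD p38+/+, where it lay between 0.993 and 2.25 CPM. For scale, 3 reads were worth 0.183 to 0.246 CPM by library.

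Just outside were Echdc3, an enzyme related to enoyl-CoA hydratases, at or above 1 CPM in 2 libraries, and Nck2, an adaptor of SH2 and SH3 domains, and Fermt2, the integrin activator kindlin-2, each in 1. Echdc3 had 0.902, 0, 0 and 0 CPM in AD p38KO, 0, 0.0690, 0.774 and 1.35 CPM in AD p38+/+, 0.0814, 0.578, 1.44 and 0.931 CPM in WT p38KO and 0, 0.0609, 0.455 and 0.257 CPM in WT p38+/+ mice. Nck2 reached at most 2.35 CPM, in WT p38+/+ mouse 3, and Fermt2 at most 1.37 CPM, in WT p38KO mouse 2. Epha1, an Eph receptor, was at 0.803 CPM or less in all 16 libraries. These 4 members were barely detected in the sorted cells at this depth.

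Transcripts were tested for the comparisons over both p38 genotypes and over both backgrounds. The members had 160 listed transcripts, of which 49 fell short of 1 CPM in 4 libraries and the rest were tested. For AD against WT, 0 passed limma's test, against 0.379% of 34323 transcripts, and 6 had an unadjusted p under 0.05 (5.41%), against 9.13%. For p38KO against p38+/+, 0 passed, against 0.166% of all transcripts, and 7 had an unadjusted p under 0.05 (6.31%), against 7.39%. Unequal change among the transcripts of a gene (transcript usage, limma's diffSplice with a Simes test) was found in 0 of 25 members for AD against WT, against 0.0758% of 7914 genes, with 3 at an unadjusted p under 0.05 (12%), against 8.71%. For p38KO against p38+/+ it was found in 0 members, against 1.50% of genes, with 3 at an unadjusted p under 0.05, against 11.6%.

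The 1 most abundant transcript held at least 90% of a member's CPM in every library for 7 members, among them Scimp, Sorl1, Dgka, Clu and Sppl2a. Scimp and Ms4a6d have only 1 listed transcript each, so their share was fixed in advance. In Tspan14, Tspan14-201 held 51.0 to 54.6% over the 16 libraries, and Tspan14-202 nearly all of the rest, a split that stayed in a narrow band. Bin1-205 held 68.7 to 78.6% of Bin1, Abi3-202 47.3 to 58.3% of Abi3, Blnk-201 48.8 to 66.4% of Blnk, Cr1l-201 35.9 to 54.5% of Cr1l and Picalm-205 28.7 to 48.1% of Picalm. Ms4a6b-201 held 52.6 to 76.4% of Ms4a6b, Ms4a6c-201 77.5 to 94.6% of Ms4a6c and Ms4a6d-201 all of Ms4a6d. Usp6nl-202 varied most among the named members, between 4.73 and 85.4% of Usp6nl.

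Picalm had 12 tested transcripts and the smallest usage p of the members for AD against WT (FDR 0.132). Of these, Picalm-204 had the smallest p, with 0.402, 0.997, 0.490 and 0 CPM in AD p38KO, 1.49, 1.52, 0.525 and 0.301 CPM in AD p38+/+, 4.83, 0.915, 2.43 and 0.680 CPM in WT p38KO and 3.43, 1.21, 3.33 and 1.61 CPM in WT p38+/+ mice. It held under 1% of the gene's CPM in every group on average, and its log2 fold change was -1.17 ± 0.37 (SE, limma adjusted p = 0.295), and -0.95 without AD p38KO mice 1 and 4 (adjusted p = 0.502). Picalm-204 reached 1 CPM in every WT p38+/+ mouse and in no AD p38KO mouse, so it passed the filter only through WT mice, where it was high. Its fold change is therefore given as a value only, and the usage test of Picalm included this transcript. The FDR for Picalm was 0.0124 with 0.1 CPM in place of 0.5 CPM added before the log, and 0.0470 without AD p38KO mouse 2. The cause of these shifts was not tested.

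Blnk-202, chosen after its values were seen, had the smallest p of the member transcripts for p38KO against p38+/+. It had 59.0, 53.7, 54.1 and 46.7 CPM in AD p38KO and 28.7, 30.5, 42.6 and 36.1 CPM in AD p38+/+ mice. In WT p38KO mice it had 58.7, 40.7, 53.8 and 38.3 CPM, and in WT p38+/+ mice 43.8, 38.5, 36.4 and 31.5 CPM. All 4 AD p38KO mice lay above the 4 AD p38+/+ mice, and the WT groups overlapped. Over both backgrounds its log2 fold change was 0.48 ± 0.12 (SE), with an unadjusted p of 0.000991 and a limma adjusted p of 0.210, and it was 0.49 without AD p38KO mice 1 and 4.

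For p38KO against p38+/+, the smallest usage p of the members was that of Prkd3 (FDR 0.289). Prkd3-201 had 6.45, 10.6, 20.05 and 6.33 CPM in AD p38KO and 18.6, 22.2, 19.3 and 16.7 CPM in AD p38+/+ mice, against 23.6, 17.2, 14.2 and 17.0 CPM in WT p38KO and 24.2, 28.2, 17.5 and 27.0 CPM in WT p38+/+ mice. The low values were those of 3 of the 4 AD p38KO mice. Its log2 fold change over both backgrounds was -0.68 ± 0.21 (SE, limma adjusted p = 0.360), and -0.40 without AD p38KO mice 1 and 4 (adjusted p = 0.639). With transcripts under 5 CPM left out the FDR for Prkd3 was 0.0208.

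**Figure D4:**
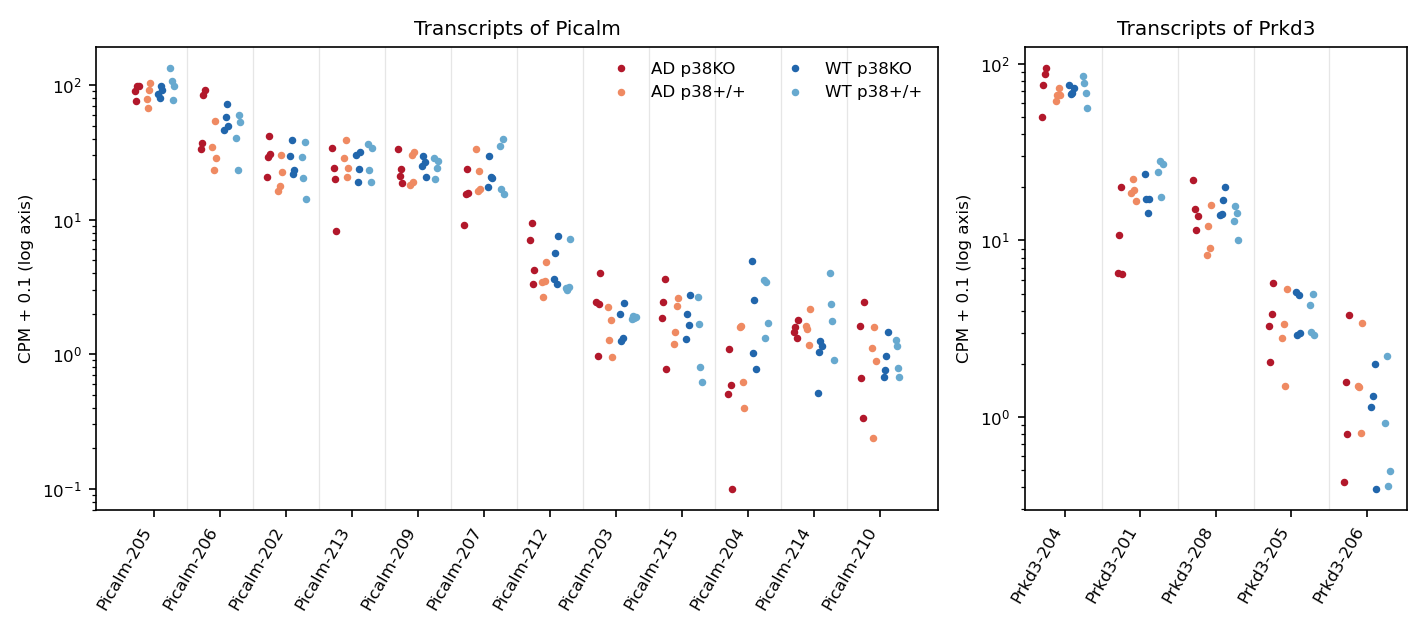
CPM + 0.1 (log axis) of the tested transcripts of Picalm (12) and Prkd3 (5) in each of the 16 mice, coloured by group and ordered by mean CPM. Picalm-204 is under 5 CPM in every mouse and is at 0 in AD p38KO mouse 4, and Prkd3-201 is under 11 CPM in AD p38KO mice 1, 2 and 4.

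Other genes of Alzheimer risk loci were counted from a separate list of 34, of which 30 were tested. For AD against WT over both p38 genotypes, 3 of 30 rose and 0 fell past an adjusted p of 0.05 in limma's test, against 0 of the 31 members and 1.03% of all genes, and 10 had an unadjusted p under 0.05, against 12% of all genes. The 3 were Apoe, the main apolipoprotein of brain, with a log2 fold change of 1.32 ± 0.27 (SE, adjusted p = 0.0199), the lysosomal protease Ctsb with 0.44 ± 0.07 (adjusted p = 0.00256) and the lysosomal protein Grn with 0.23 ± 0.05 (adjusted p = 0.0240). For AD p38KO against WT p38KO mice 1 was called lower, the zinc-finger gene Jazf1, and 6 had an unadjusted p under 0.05, against 9.56% of all genes. Jazf1 was at 0 to 0.159 CPM in AD p38KO and 1.08 to 1.81 CPM in WT p38KO mice (adjusted p = 0.0480). It reached 1 CPM in 7 libraries, 4 of them the WT p38KO mice, so it entered the test only through the group where it was high, and the AD p38KO libraries had the fewest genes above 0. The call is therefore given as a value only. In the other 5 comparisons limma called 0 of 30, with 8 at an unadjusted p under 0.05 for AD p38+/+ against WT p38+/+ mice (7.11% of all genes), 3 for p38KO in AD mice (6.99% of all genes) and 2 in WT mice (3.53%), 2 for p38KO over both backgrounds (5.90%) and 2 for the interaction (3.92%). The difference between both lists was not tested. Which genes went into which list was chosen with earlier results of these data known, so 3 against 0 is no result about the members.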

How the data were processed

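RNA from sorted microglia of 16 mice was sequenced by the authors, aligned with STAR to mm10 and counted in Partek Flow 10.0.22.0828, per the submitters' processing notes and the study's methods. Ensembl release 100 transcripts were used, and the counting strand is not given in the sources used here. The deposited gene and transcript values are CPM with 0.0001 added by the authors. Of low values, 77.2 to 83.2% by library were within 0.05 of a whole read, so counts were not recovered and no count model was used.

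Groups came from the genotype in the sample titles. Features under 1 CPM in 13 or more libraries were left out, and the remaining 13912 genes and 34323 transcripts were tested on log2(CPM + 0.5), so that fold changes of low genes are understated, with limma 3.58.1 in R 4.3.3 (empirical Bayes with a trend, 1 model over 4 groups, two-sided, Benjamini-Hochberg adjustment over all features). Transcript usage was tested with diffSplice and a Simes p per gene. Scripts were tested on simulated data. The labels call the left hemispheres fixed, whereas the methods describe homogenising them fresh.

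Values in every library are given for the 3 members with the smallest p in each comparison, the 8 with the highest length-scaled level in WT p38+/+ mice and those nearest the CPM limit. Blnk-202, Picalm-204 and Prkd3-201 were chosen after their values were seen. The members, the separate list of other risk-locus genes, the role lists, marker lists and motif were chosen with earlier results of these data known. Lengths, overlaps and coordinates were from GENCODE M21 (GRCm38), whose coordinates were the same as in the files for 35 of 35 listed members. Alternatives were another pseudocount, filter or scaling, sex, library label or animal number as covariates, array weights, only the groups compared, each library left out and, chosen after seeing the data, AD p38KO mice 1 and 4 left out together. P-values measure the spread between mice, and intervals on reads would cover counting error only.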

Additional observations from a re-analysis of the deposited data

Results flagged for a closer look

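For 11 named members, each of the 44 groups of 4 mice was searched for a mouse far from the other 3, which chance gives in about 1 group in 20. Of these, 4 stood out. Ms4a6b was at 104.4 CPM in WT p38KO mouse 2, with the nearest mouse at 114.4 CPM. Ms4a6d was at 115.1 CPM in AD p38KO mouse 2, with the nearest at 91.6 CPM. Dgka was at 19.1 CPM in AD p38+/+ mouse 4, with the nearest at 12.5 CPM. Usp6nl was at 47.2 CPM in WT p38+/+ mouse 2, with the nearest at 37.6 CPM. No cause was tested.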

How the results depend on the processing

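Of 600 values for named members under alternative settings, 599 kept their direction and their side of the threshold, and 1, Ms4a6b in AD p38KO against WT p38KO mice, passed it. The number of members called there was 0 to 1 with each library left out in turn, 1 (Ms4a6b, adjusted p = 0.0487) only without WT p38+/+ mouse 2. That mouse is in neither group compared and enters only through the shared estimate of spread. The number with changed transcript usage for AD against WT over both p38 genotypes was 1 (Picalm) with a pseudocount of 0.1 CPM, and 0 to 1 with libraries left out, 1 only without AD p38KO mouse 2 (FDR 0.0470). Both tests of Picalm included Picalm-204, which passed the filter only through WT mice. For p38KO against p38+/+ over both backgrounds it was 1 (Prkd3) with a filter at 5 CPM, and 0 with each library left out. The other 280 of 284 counts were unchanged. Libraries with the same animal number deviated together in 2 of 24 pairs (r over 0.1, range -0.13 to 0.18). Those with other numbers did so in 4 of 72 pairs (range -0.15 to 0.21). These correlations cannot show whether mice were matched by number, and mouse 1 was female in every group. With the animal number as a replicate block, 0 members were called. Without AD p38KO mice 1 and 4, 0 members were called either. Depth limits mainly Ace and the 4 members under the CPM limit, where 3 reads are 0.183 to 0.246 CPM.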
